A study of Mus musculus with 2 samples.

Results

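Conventional dendritic cells of 2 kinds, cDC1 and cDC2, were described in tumours of BALB/c mice. The 206 cells were taken by their unique molecular identifier (UMI) counts, each UMI standing for a captured transcript, from 19839 deposited barcodes. A barcode entered when it had at least 200 genes, at most 10% mitochondrial UMIs, at least 1000 UMIs, at least 10 UMIs of H2-Aa and H2-Ab1 together, at most 1 UMI of Ccr7 and Fscn1 together and no Cd3e UMI, which left 2647 barcodes. Of these, 89 had at least 2 UMIs of Xcr1 and Clec9a together and formed the cDC1 gate. Another 117 had no Xcr1 or Clec9a UMI, at least 3 Cd209a UMIs and at most 1 Adgre1 UMI and formed the cDC2 gate. The study compared leukocytes that infiltrate tumours grown from CT26, a mouse colon carcinoma line, in a mock group and in a group whose tumours express PTIR1, with 1 single-cell 3′ RNA library in each. The labels give the strain BALB/c, the tissue tumour and the genotypes mock and PTIR1-expressing; they name no age, no time point and no number of animals per library, and both libraries come from tumour-bearing hosts. No row of the 32285 in the gene table is named PTIR1, so the label was not checked against that gene. The Mock library held 53 cDC1 and 70 cDC2 gate cells, and the PTIR1 library 36 and 47.

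Conventional dendritic cells take up antigen, carry it to lymph nodes and present it to T cells. The cDC1 kind depends on the transcription factors IRF8 and BATF3, reads dead cell material through CLEC9A and presents tumour antigen on MHC class I to CD8 T cells, and XCR1 is the receptor for a chemokine that those T cells and NK cells release. The cDC2 kind is marked by SIRPA, CD11b and, in many tissues, the lectins CD209A and MGL2, depends more on IRF4 and presents mainly on MHC class II to CD4 T cells. Both kinds arise under the growth factor receptor FLT3, express ZBTB46, which plasmacytoid dendritic cells and macrophages lack or hold at low level, and respond to interferon gamma and to type I interferon.

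The libraries held 95166611 (Mock) and 98540561 (PTIR1) UMIs, and the median kept barcode had 2947.5 and 7016 UMIs. The gated dendritic cells were deeper and close in depth between libraries, with a median of 20573 and 20293.5 UMIs in cDC1 and 17901 and 16300 in cDC2 (Mock first here and in every pair of values that follows). The libraries shared 30 barcode sequences, 1 of them a gated cell.

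The gates held more than conventional dendritic cells. In 49 of the 206 cells (23.8%) the plasmacytoid dendritic cell gene Siglech had between 9 and 62 UMIs, against 0 or 1 in the other 157 cells, and these cells had no Zbtb46 UMI in either library. Their summed plasmacytoid dendritic cell list of 10 genes lay between 9621 and 15664 counts per 1000000 UMIs (CPM), against 283 to 449 in cells kept after such cells were left out. They still had Flt3, at 57.1 to 122 CPM. Their median depth was 13941 and 14050 UMIs in the cDC1 gate and 13916.5 and 11330 in the cDC2 gate, below the 28076 and 20727 UMIs of narrowed cDC1 and the 16270 and 17416 UMIs of narrowed cDC2, the sets described next. Another 33 cells had at least 2 Adgre1 UMIs, at least 10 UMIs of the complement genes C1qa, C1qb and C1qc or at least 50 Lyz2 UMIs per 10000, which are macrophage and monocyte transcripts. Another 9 cells of the cDC1 gate had no Xcr1 UMI and passed on Clec9a alone. The 115 cells left (55.8%) are called the narrowed sets below, a choice made after the data were seen.

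The share of the narrowed set differed between libraries most in the cDC1 gate. Of the 53 Mock cDC1 gate cells 15 had Siglech, 13 had macrophage or monocyte RNA, 7 had no Xcr1 and 18 (34%, exact 95% binomial interval 21.5 to 48.3) were in the narrowed set. Of the 36 PTIR1 cells 7, 2 and 2 fell in those categories and 25 (69.4%, 51.9 to 83.7) were narrowed cDC1. In the cDC2 gate 16 of 70 Mock cells had Siglech, 15 had macrophage or monocyte RNA and 39 (55.7%, 43.3 to 67.6) remained, against 11, 3 and 33 (70.2%, 55.1 to 82.7) of 47 PTIR1 cells. The summed macrophage list followed this split, at 5685 and 2469 CPM in the cDC1 gate and 951 and 641 CPM in narrowed cDC1. In cDC2 that list was near level between the libraries, below cDC1 in the gates and above it in the narrowed sets, at 1690.3 and 1733 CPM in the gate and 1330.5 and 1359 CPM in the narrowed set. The Lyz2 limit of 50 per 10000 cut through a range of values in Mock. The nearest cells without Siglech on either side were at 44.2, a narrowed cell, and 63.2 in cDC1, and at 49.1 and 53.9 in cDC2. Each comparison below therefore gives the value over all cells of the gate and the value over the narrowed set.

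**Figure D1:**
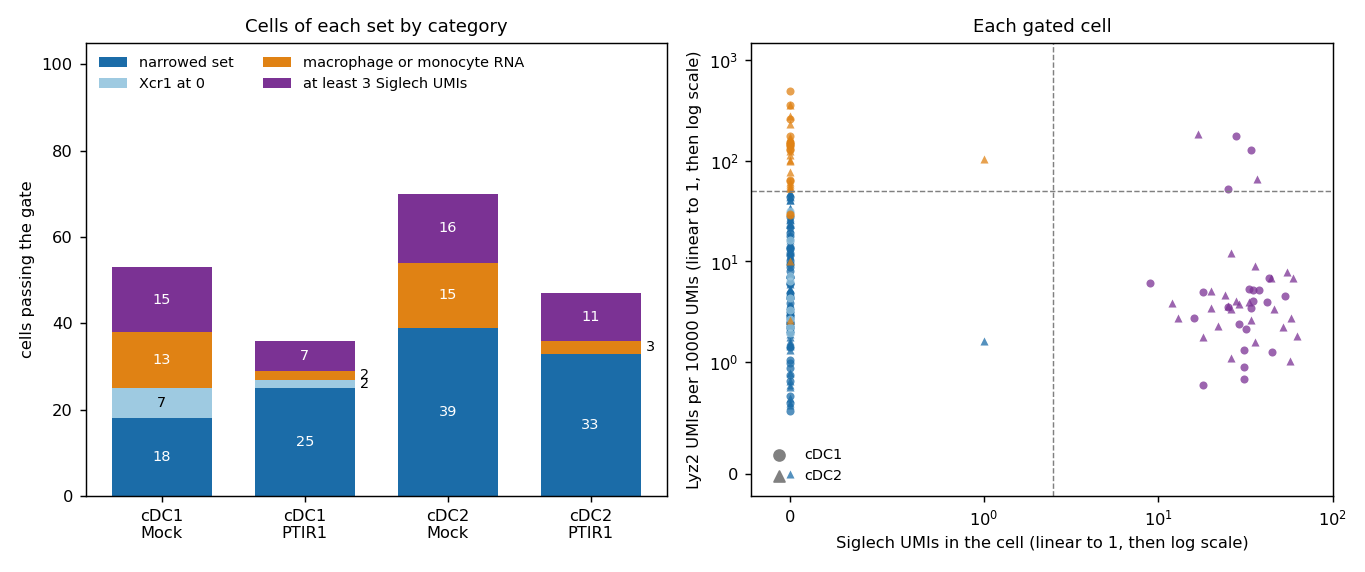
Left, cells passing each gate (y axis, number of cells) by library and category; right, each of the 206 cells by its Siglech UMIs (x axis) and Lyz2 UMIs per 10000 (y axis), circles cDC1 and triangles cDC2, with dashed lines at the limits and the colours of the left panel. The 49 Siglech cells form a separate group at 9 UMIs or more, and the narrowed set is 18 of 53 Mock and 25 of 36 PTIR1 cDC1 gate cells.

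Siglech cells were common at the edge of the cDC1 gate and, in PTIR1, at that of the cDC2 gate. Mock cells with exactly 2 Xcr1 and Clec9a UMIs, just inside the cDC1 gate, numbered 14, of which 7 had Siglech, and held Wdfy4, needed by cDC1 for cross-presentation, at 45.5 CPM. The 39 Mock cells with 3 or more held it at 289 CPM, and the 38 with 1 UMI, just outside, at 29.8 CPM. In PTIR1 all 5 cells with exactly 2 UMIs had Siglech, and the 31 with 3 or more held Wdfy4 at 398 CPM. At the other edge, 10 Mock and 10 PTIR1 cells had exactly 3 Cd209a UMIs, with Mgl2 at 540.2 and 1171 CPM. Siglech cells were 3 and 5 of these, against 13 of 60 and 6 of 37 with 4 or more. The 9 and 8 cells with 2 Cd209a UMIs, just outside, had Mgl2 at 486 and 918 CPM, and the 60 and 37 cells with 4 or more at 1431 and 2179 CPM. At both edges the cells just inside stood nearer to those just outside than to those well inside in these genes.

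The defining genes were read first, as a description, since Xcr1, Clec9a and Cd209a chose the cells. All locations are in the mouse build GRCm38 (mm10) with GENCODE vM21. Xcr1 (ENSMUSG00000060509, chromosome 9, 123852315 to 123862029, minus strand) stood at 193 and 269.5 CPM in the cDC1 gate and 384 and 319 CPM in narrowed cDC1, with a UMI in 50.9% and 77.8% of the gate's cells. Clec9a (ENSMUSG00000046080, chromosome 6, 129408862 to 129424763, plus strand) stood at 132 and 162 CPM, with a UMI in 92.5% and 94.4% of cells. So nearly every cDC1 gate cell had Clec9a, while many Mock cells had no Xcr1. Cd209a (ENSMUSG00000031494, chromosome 8, 3743397 to 3748984, minus strand) stood at 883 and 963 CPM in the cDC2 gate and at 1133 and 1137 CPM in narrowed cDC2. Mgl2 (ENSMUSG00000040950, chromosome 11, 70130329 to 70137550, plus strand), a lectin of cDC2 that the gate did not use, stood at 1289.7 and 2001 CPM in the cDC2 gate and 79.2 and 26.2 CPM in the cDC1 gate. Flt3 (ENSMUSG00000042817, chromosome 5, 147330741 to 147400489, minus strand), also unused by the gate, stood at 93.9 and 120.5 CPM in the cDC1 gate and 25.2 and 30.9 CPM in the cDC2 gate. The background was read in B cells, which should lack these genes except for low Flt3 in their precursors: with median depths of 4409 and 4625 UMIs, 0.23% and 0.577% of them had an Xcr1 UMI, 0.92% and 0.692% a Clec9a UMI and 0.92% and 1.85% a Cd209a UMI. Summed over the B cells, Mgl2 was at 21.6 and 24.7 CPM and Flt3 at 1.49 and 7.87 CPM.

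Zbtb46, the factor that marks conventional dendritic cells, was present in both narrowed sets at like levels, 46.6 and 34.3 CPM in cDC1 and 43.9 and 30.6 CPM in cDC2, with a UMI in 55.6% and 56% of cDC1 and 51.3% and 36.4% of cDC2. Irf8 and Batf3 stood higher in cDC1 and Sirpa, Itgam, Irf4 and Mgl2 in cDC2, as given below. In these genes the narrowed sets differed in the direction of their names. Csf1r, Cd14 and Mrc1 also stood higher in narrowed cDC2, as given below, so monocyte-derived dendritic cells among them cannot be told apart here. Flt3, shared by both kinds, was sparse in narrowed cDC2, where 34 of 39 Mock and 25 of 33 PTIR1 cells had none. It stood there at 11 CPM in Mock, below the 122 CPM of the Mock Siglech cells of the cDC2 gate. The narrowed cDC2 were not uniform in Mgl2: 8 of 39 Mock and 5 of 33 PTIR1 cells had none, and 21 and 19 had 20 UMIs or more. Mock narrowed cDC2 without Mgl2 held the monocyte gene Ly6c2 at 1147 CPM, against 99.5 CPM in those rich in Mgl2, but 2 of the 8 cells held 139 of the 152 UMIs and 4 had none. In PTIR1 the values were 15.6 and 45.5 CPM.

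The gates held fewer cells in PTIR1, 36 against 53 for cDC1 and 47 against 70 for cDC2. Shares were taken of kept barcodes. The cDC1 gate held 0.568% of kept Mock barcodes (exact 95% interval 0.426 to 0.743) and 0.476% of PTIR1 barcodes (0.333 to 0.658), a ratio of 0.837 (0.533 to 1.3). The cDC2 gate held 0.75% (0.585 to 0.947) and 0.621% (0.457 to 0.825), a ratio of 0.828 (0.559 to 1.21). Both intervals include 1. In the narrowed sets the cDC1 share was 0.193% and 0.33%, a ratio of 1.71 (0.897 to 3.33), and the cDC2 share 0.418% and 0.436%, a ratio of 1.04 (0.636 to 1.7). cDC1 made up 43.1% and 43.4% of both gates' cells and 31.6% (19.9 to 45.2) and 43.1% (30.2 to 56.8) of the narrowed cells. No difference in share of kept barcodes was detectable with these counts, and the direction of the cDC1 ratio turned between the gate and the narrowed set. This depends on the denominator, as kept barcodes include those under 1000 UMIs, which no gate could take. At least 1000 UMIs were found in 6642 of 9328 kept Mock and 6570 of 7567 kept PTIR1 barcodes. On that base the gate ratios would be lower, and their intervals were not computed. All intervals here cover counting error only, with 1 library in each group they carry no spread between animals, and no p-value can be given.

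Expression was compared on UMIs summed over the cells of a set and scaled to CPM. A gene was measured when it had at least 50 UMIs in the cells compared. Between cDC1 and cDC2 a gene was called when the 95% counting interval of the CPM ratio lay beyond 2-fold in the same direction in both libraries. Between libraries it was called when the ratio was beyond 1.5-fold and its interval left out 1. These are rules of size, not tests, and cells of a library are not replicates. Over all cells of the gates 56 of 7021 measured genes (0.798%) were called higher in cDC1 and 42 (0.598%) higher in cDC2. The narrowed sets gave 62 of 5017 (1.24%) higher in cDC1 and 125 (2.49%) higher in cDC2, and 36 genes higher in cDC1 and 37 higher in cDC2 were called in both the gates and the narrowed sets. As the gates chose the cells on this contrast, what follows describes the sets and tests nothing, and the genes of the gates are left out of every count.

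The transcription factors divided the sets. Irf8, on which cDC1 depend, stood at 1689.9 and 1731 CPM in the cDC1 gate and 675 and 648 CPM in the cDC2 gate, 2.5 (2.32 to 2.71) and 2.67 (2.41 to 2.96) times higher. In the narrowed sets cDC2 stood at 160.5 and 90.1 CPM and the ratio grew to 14 and 18.9; Siglech cells are also rich in Irf8 and 27 of them lay in the cDC2 gate. Batf3, the partner of Irf8 in cDC1, was 2.77 and 2.67 times higher in cDC1, with intervals that reached below 2, and was not called. Id2, a factor cDC1 need, was 1.87 and 2.5 times higher in the gate and 3.55 and 2.79 times in the narrowed sets, where it was called. Irf4, the cDC2 factor, stood at 34.3 and 43.2 CPM in narrowed cDC2 and 0 and 1.71 CPM in narrowed cDC1. Zeb2 and Tcf4, which cDC2 share with plasmacytoid dendritic cells, were called higher in narrowed cDC2, with ratios over cDC1 of 5.62 and 11.5 for Zeb2 and of 5.37 and 4.88 for Tcf4. Of 25 measured transcription factors 1 was called over the gates, and of 23 in the narrowed sets 5, with Id2 and Irf8 higher in cDC1 and Irf4, Tcf4 and Zeb2 in cDC2.

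The cDC1 marker list, of which 16 of 20 genes were measured and unused by the gates, had 11 genes called higher in cDC1 and a median log2 ratio of 1.98, beside -0.02 over all measured genes. Tlr3, the sensor of double-stranded RNA, stood at 84.1 and 120.5 CPM in cDC1 and 6.48 and 1.29 CPM in cDC2. Itgae, the CD103 integrin chain, stood at 153 and 223 CPM in cDC1 and 4.32 and 5.15 CPM in cDC2, ratios of 35.3 and 43.3. Naaa, a lysosomal amidase of cDC1, stood at 965 and 1436 CPM in cDC1 and 312 and 206 CPM in cDC2, ratios of 3.09 and 6.96. Wdfy4 stood at 228 and 352 CPM in cDC1 and 70.6 and 83.8 CPM in cDC2, ratios of 3.23 and 4.2. Another 3 genes had no UMI in the cDC2 gate of either library: Gcsam, a signalling protein also known from germinal centre B cells, at 75.9 and 103 CPM in cDC1, Snx22, a sorting nexin, at 23.7 and 41.7 CPM, and Tlr11, the sensor of profilin, at 22.9 and 34.6 CPM. With 3 counts over the cDC2 gate of a library in place of 0, Gcsam was at least 35.1-fold higher in Mock cDC1 and at least 26.5-fold higher in PTIR1 cDC1. Rab7b, a small GTPase of endosomes, was 25.9 and 12.5 times higher in cDC1, Ppt1, a lysosomal thioesterase that cDC1 use in cross-presentation, 6.1 and 8.99 times. Cd24a, a sialoglycoprotein of cDC1, was 3.2 and 3.08 times higher. Outside the list, Plet1, a surface protein of epithelia and dendritic cells, was 5.02 and 7.77 times higher and Btla, an inhibitory receptor, 3.37 and 5.4 times. Among narrowed cells the ratios were 12 and 25.4 for Btla, 13.8 and 9.19 for Flt3 and 245 and 37.4 for Rab7b, and 12 of 14 list genes were called.

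On the other side, 15 of 18 genes of the cDC2 marker list were measured, 4 were called higher in cDC2 and the median log2 ratio was -1.48. Among narrowed cells 10 of 14 were called, with a median of -3.44. Mgl2 was 16.3 (13.3 to 20.2) and 76.3 (50.2 to 122) times higher in cDC2. Clec10a, a lectin of the same family, stood at 277 and 224 CPM in cDC2 and 44.1 and 27.4 CPM in cDC1. Sirpa, the SIRPα receptor that marks cDC2, stood at 183 and 263 CPM in the cDC2 gate and 94.7 and 48.9 CPM in the cDC1 gate, and at 22.2 and 10.3 CPM in narrowed cDC1, which brought the ratio from 1.93 and 5.38 to 9.57 and 28.6. Itgam, the CD11b integrin chain, was 1.59 and 2.97 times higher in the cDC2 gate and 7.1 and 7.64 times in narrowed cDC2. Csf1r, a receptor of macrophages and of many cDC2, moved in the same way, from 1.49 and 3.63 to 9.18 and 11.5. The calls of Sirpa, Itgam and Csf1r were made only in the narrowed sets, from which cells with macrophage and monocyte transcripts had been left out through Adgre1, the C1q genes and Lyz2.

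C-type lectins and related uptake receptors were mostly genes of cDC2. Of 17 measured, 13 stood higher in cDC2, 3 were called so and 1, Cd36, was called higher in cDC1 (median log2 ratio -1.19), and in the narrowed sets 10 were called (median -2.58). Clec4n, the dectin-2 receptor for fungal mannans, stood at 531 and 521 CPM in cDC2 and 167 and 75.1 CPM in cDC1, and at 13.3 and 22.3 CPM in narrowed cDC1. Mrc1, the mannose receptor, was 1.27 and 4.48 times higher in the cDC2 gate and 4.11 and 94 times in the narrowed sets. Fc receptors followed, with all 6 measured in the narrowed sets higher in cDC2 and 2 called, Fcer1g, the common signalling chain, and Fcgr2b, the inhibitory receptor. Cd14, the co-receptor for endotoxin, was called only there, at ratios of 5.93 and 15.8. S100a4 and S100a6, calcium-binding proteins of migrating myeloid cells, were higher in the cDC2 gate, by ratios of 3.15 and 8.47 for S100a4 and of 2.24 and 3.17 for S100a6. The cDC1 gate set no limit on Adgre1, and there 5 of 13 measured macrophage genes were called higher in cDC1, the complement gene C1qc among them at 412 and 136 CPM and 7.93 and 2.58 CPM in cDC2, while in the narrowed sets, chosen on C1q, 2 of 9 were called higher in cDC2. The PTIR1 level of C1qa, its partner gene, rested on 1 cell of the cDC1 gate, a Siglech cell with 296 UMIs. The 2 PTIR1 cells with macrophage or monocyte RNA had no C1qa UMI, and no narrowed PTIR1 cDC1 cell had more than 2. Cross-presentation and antigen handling genes were split: Wdfy4, Rab7b and Cd36, a scavenger receptor at 71 and 53.7 CPM in cDC1 and 19.5 and 3.87 CPM in cDC2, were called higher in cDC1, while 12 of 17 measured genes of that list stood below 0 on the log2 scale (median -0.19).

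MHC class II genes were near level, apart from a subunit of the peptide editor. H2-DMb2, a beta chain of H2-DM, which loads peptides onto class II, stood at 137 and 91.8 CPM in cDC1 and 476 and 457 CPM in cDC2, 3.47 (2.93 to 4.14) and 4.98 (3.88 to 6.46) times higher in cDC2. It was the only call among 10 measured class II genes, in the gates and in the narrowed sets, where the ratios were 3.12 and 5.28. Its partner H2-DMa stood at 894 and 747 CPM in cDC1 and 1053 and 1108 CPM in cDC2, ratios of 1.18 and 1.48 over cDC1. The neighbouring paralog H2-DMb1 shares much of its sequence with H2-DMb2, so the split of reads between them is uncertain. On the class I side none of 16 measured genes was called (median 0.07). The 5 immunoproteasome genes, whose subunits replace those of the constitutive proteasome under interferon and shape the peptides shown on class I, all stood higher in the cDC1 gate (median 0.58) and none was called. Psmb9, a catalytic subunit, stood at 794 and 897 CPM in cDC1 and 431 and 327 CPM in cDC2, ratios of 1.84 (1.66 to 2.04) and 2.74 (2.37 to 3.17). Psmb8, another catalytic subunit, had ratios of 1.39 and 1.71, and Psmb10, the third, of 1.29 and 1.11. Psmb9 in the narrowed sets reached 2.2 and 3.41 and Psmb10 0.99 and 1.01, which is level.

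Several signals and receptors of inflammation stood higher in cDC2, while the chemokines went both ways. Of 19 measured chemokines 12 stood higher in the cDC1 gate (median log2 ratio 0.42), 1 was called higher there and 2, Ccl17 and Cxcl2, in cDC2. The call in cDC1 was Ccl8, which draws monocytes, at 235 and 59.6 CPM in cDC1 and 13.7 and 9.02 CPM in cDC2, ratios of 17.2 and 6.61. In the narrowed sets 14 of 18 stood higher in cDC2 (median -1.28), 2 were called there and none in cDC1. Il1r2, the decoy receptor for interleukin 1, stood at 434 and 479 CPM in cDC2 and 49.8 and 113 CPM in cDC1, ratios of 8.71 and 4.23. Ltb4r1, the receptor for leukotriene B4, was 5.17 and 4.1 times higher in cDC2, and Ltb, a lymphotoxin chain, 2.91 and 7.33 times. Cxcl2, a neutrophil chemokine, stood at 2059 and 2284 CPM in cDC2 and 734 and 796 CPM in cDC1. Ccl17, a chemokine for CCR4 bearing T cells, stood at 276 and 647 CPM in cDC2 and 26.1 and 112 CPM in cDC1 and was called in the gates, but its narrowed PTIR1 ratio of 2.16 was not past the rule, and it was found in 14.3% and 17% of cDC2 gate cells. Among chemokine receptors 4 of 6 measured in the narrowed sets were called higher in cDC2, including Ccr1 (7.19 and 22.8), and Cx3cr1 had no UMI in narrowed cDC1 of either library. Cd80, a ligand of CD28, stood at 38.2 and 50.3 CPM in cDC2 and 9.8 and 8.35 CPM in cDC1 and was called higher in cDC2, while Btla was the call of that list on the cDC1 side. Il7r, the interleukin 7 receptor chain, was called in the narrowed sets, at 136 and 123 CPM in cDC2 and 0 and 1.71 CPM in cDC1.

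Cell cycle genes stood higher in cDC1. All 18 measured of 20 were above 0 on the log2 scale, with a median of 1.70, and 5 were called: Birc5, Hmgb2, Mcm3, Rrm2 and Stmn1. Hmgb2, a chromatin protein of dividing cells, stood at 348 and 654 CPM in cDC1 and 141 and 238 CPM in cDC2, and Stmn1, a tubulin-binding protein, at 44.1 and 68 CPM in cDC1 and 10.1 and 7.73 CPM in cDC2. Cells with at least 3 UMIs of Mki67 and Top2a together were 8 of 53 (15.1%, 6.75 to 27.6) and 7 of 36 (19.4%, 8.19 to 36) in the cDC1 gate. In the cDC2 gate they were 3 of 70 (4.29%, 0.893 to 12) and 3 of 47 (6.38%, 1.34 to 17.5). So a minority of cDC1 cells carried these genes, and the difference in share between the gates was in the same direction in both libraries with intervals that overlap. In the narrowed sets the cells were 3 of 18 and 6 of 25 cDC1 and 2 of 39 and 3 of 33 cDC2, and the list median was 1.82.

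**Figure D2:**
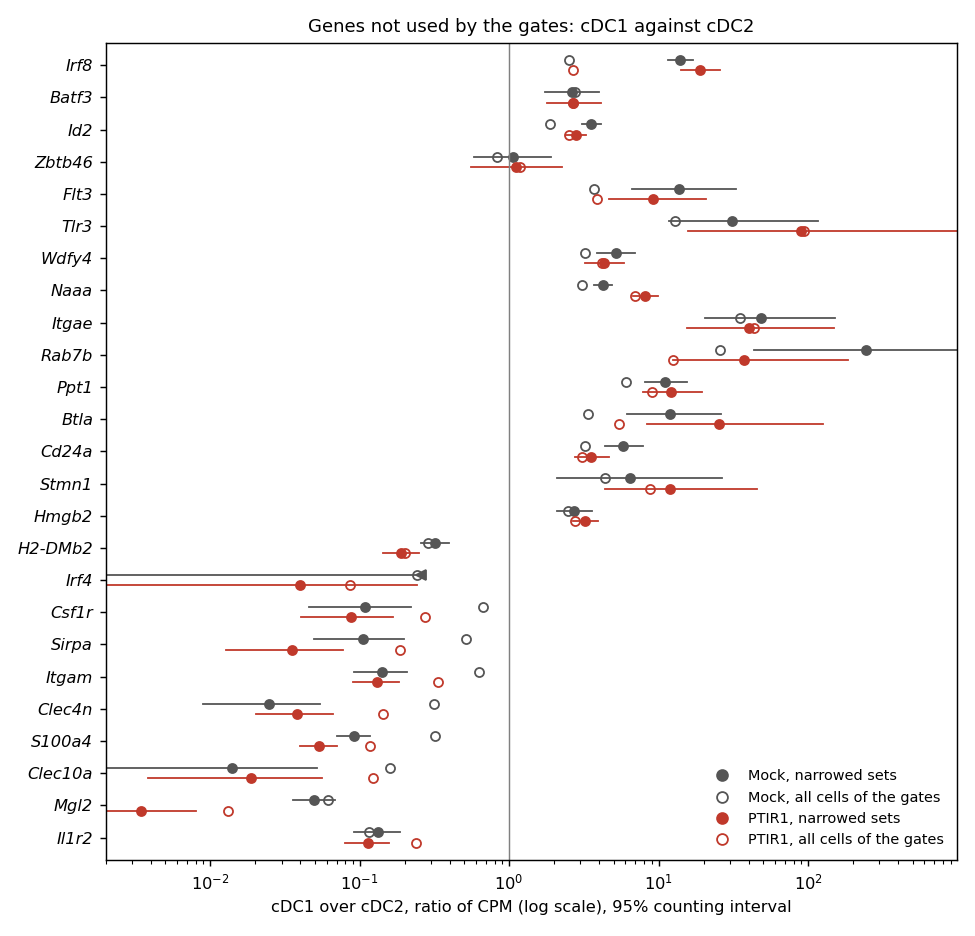
CPM in cDC1 over CPM in cDC2 (x axis, log scale) for 25 genes the gates did not use, in the Mock (grey) and PTIR1 (red) library; filled points with 95% counting intervals are the narrowed sets, open circles all cells of the gates, and a triangle is the interval's bound where 1 set has no UMI. For Irf8, Btla, Csf1r, Sirpa and Itgam the open circles lie nearer to 1 than the filled points, while Batf3 and Zbtb46 hardly move.

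The PTIR1 library was then set against the Mock library within each set. Over all cells of the cDC1 gate 212 of 4875 measured genes (4.35%) were called higher in PTIR1 and 399 (8.18%) lower. In narrowed cDC1 194 of 2684 (7.23%) were called higher and 102 (3.8%) lower. Of these, 87 genes were called higher in both the gate and the narrowed set (87 of 212 and of 194) and 31 lower (31 of 399 and of 102). In the cDC2 gate 266 of 5051 (5.27%) were called higher and 197 (3.9%) lower, in narrowed cDC2 213 of 3443 (6.19%) and 209 (6.07%). Here 122 genes (of 266 and of 213) were called higher in both and 95 (of 197 and of 209) lower. A smaller share of the lower calls held in both versions in cDC1 than in cDC2. The 2 libraries are also the 2 groups, so a difference between libraries and a difference between groups cannot be told apart.

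Interferon gamma response genes were lower in PTIR1 cDC2 and, in cDC1, lower only over all cells of the gate. In the cDC2 gate 16 of 18 list genes were measured, 11 were called lower in PTIR1, where 3.9% of all measured genes were, and none higher, with a median log2 ratio of -1.30 beside -0.01 over all measured genes. Narrowed cDC2 gave 10 of 15 lower and a median of -1.69. In the cDC1 gate 10 of 16 were called lower, where 8.18% of all measured genes were (median -0.67, all genes -0.08). In narrowed cDC1 none of 10 was called lower and 2 were called higher, with a median of 0.18. Cxcl10, also of the list, did not follow it in cDC2, at 116 and 152 CPM in the gate (ratio 1.31, 1.02 to 1.67).

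Cxcl9, the interferon gamma induced chemokine that draws CXCR3 bearing T cells, stood at 528 and 81.2 CPM in the cDC2 gate, a PTIR1 over Mock ratio of 0.154 (0.117 to 0.199), and at 826 and 114 CPM in narrowed cDC2, a ratio of 0.137 (0.104 to 0.178). It was in 14 of 39 Mock (35.9%) and 3 of 33 PTIR1 (9.09%) narrowed cDC2 cells, and 1 PTIR1 cell held 69.8% of that library's cDC2 gate UMIs. In B cells, the background here, 13.6% of Mock and 4.96% of PTIR1 cells had a Cxcl9 UMI at a lower median depth. With every cell thinned to 1000 UMIs the shares were 25.6% and 6.06% in narrowed cDC2 and 5.29% and 1.85% in B cells, so the Mock cDC2 share stood above its background (interval 13 to 42.1%) and the PTIR1 interval of 0.743 to 20.2% included it. In the cDC1 gate Cxcl9 stood at 922 and 243 CPM (ratio 0.264, 0.226 to 0.307), and in narrowed cDC1 at 267 and 303 CPM (ratio 1.14, 0.897 to 1.45). In the cells of the Mock cDC1 gate that the narrowing left out, Cxcl9 stood at 2116 CPM in the 13 cells with macrophage or monocyte RNA and 1374 CPM in the 7 without Xcr1, where 1 cell held 183 of the 193 UMIs and the other 6 cells stood at 101 CPM. The narrowed cDC1 level rested on few cells: 2 of 18 Mock cells held 109 of 120 UMIs, the highest of them with 44.2 Lyz2 UMIs per 10000, just under the limit of 50, and 2 of 25 PTIR1 cells held 115 of 177. Its ratio was 2.22 without the highest Mock cell, 0.695 without the highest PTIR1 cell and 1.36 without both, so no direction can be read in narrowed cDC1. In narrowed cDC2 the same ratios were 0.204, 0.0425 and 0.0629, all lower in PTIR1.

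The guanylate-binding proteins and immunity-related GTPases, which act against pathogens inside the cell, stood lower in PTIR1 cDC2 like Cxcl9. Gbp2 stood at 104 and 30.9 CPM in the cDC2 gate (ratio 0.298, 0.185 to 0.461), and its ratio in narrowed cDC2 was 0.281. In narrowed cDC2 Gbp4 had a ratio of 0.28, Gbp7 of 0.29, Igtp of 0.244, Irgm1 of 0.226 and Iigp1 of 0.227, all called lower. Ciita, which switches on MHC class II, and Irf1, an early interferon target, were not called in cDC2, at 0.819 (0.666 to 1.0) and 0.835 (0.619 to 1.12). In narrowed cDC1 neither Gbp2 nor Iigp1 was called, with Gbp2 at 20 and 37.7 CPM (ratio 1.89, 0.834 to 4.65) and Iigp1 at 99.96 and 111 CPM (ratio 1.11, 0.75 to 1.67), though without the highest cell of each library the ratio of Iigp1 was 0.594. Gbp7 was called higher there, at 35.5 and 78.8 CPM, where the whole gate gave 137 and 89.4 CPM and a call in the other direction. Per cell, the list made up a median of 11.5 Mock and 3.07 PTIR1 UMIs per 10000 in narrowed cDC2 and 5.51 and 7.72 in narrowed cDC1. The cells of the libraries overlapped widely, from 0 to 185 in Mock cDC2 and from 0 to 103 in PTIR1 cDC2.

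Type I interferon response genes went in opposite directions in the sets, lower in PTIR1 cDC2 and higher in PTIR1 cDC1. In the cDC2 gate all 18 list genes stood below 0 on the log2 scale and 11 were called lower (median -1.02), and in narrowed cDC2 13 of 15 were (median -1.43). In the cDC1 gate 5 of 14 measured genes were called higher and 1, Ifit1, lower, with 9 above 0 and 5 below (median 0.27). In narrowed cDC1 7 of 10 were called higher, where 7.23% of all measured genes were, all 10 stood above 0 and the median was 0.74. Isg15, the ubiquitin-like modifier, stood at 224 and 358 CPM in the cDC1 gate (ratio 1.59, 1.35 to 1.88) and at 212 and 95.4 CPM in the cDC2 gate (ratio 0.45, 0.344 to 0.583). Irf7, the factor that amplifies type I interferon, stood at 301 and 570.1 CPM in cDC1 (ratio 1.89, 1.65 to 2.17) and 241 and 155 CPM in cDC2 (ratio 0.643, 0.517 to 0.794). Oasl1, which holds back Irf7 translation, had ratios of 2.24 in cDC1 and 0.363 in cDC2, and Usp18, which removes Isg15 from proteins, 1.96 and 0.417. Isg20, a nuclease, was at 28.6 and 83.5 CPM in cDC1 (ratio 2.92, 1.92 to 4.52). In the narrowed sets these 5 genes had ratios of 1.82, 1.74, 2.74, 2.61 and 3.92 in cDC1 and 0.309, 0.44, 0.20, 0.307 and 0.236 in cDC2, where Isg20 had under 50 UMIs. In these 5 genes the directions of the 2 sets differed with and without the left-out cells. They are the 5 called higher in the cDC1 gate, so their direction in that gate was set by the choice. The difference between the sets was not tested, since each has 1 library per group.

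Antiviral effector genes rested on few cells. Rsad2, the viperin gene, stood at 205 and 47.7 CPM in the cDC2 gate (ratio 0.233, 0.161 to 0.329), but 1 cell held 74.6% of the Mock and 1 cell 62.2% of the PTIR1 UMIs. The ratio in narrowed cDC2 was 0.0647, and 0.0993 without the highest cell of each library. Ifit2 stood at 83.6 and 16.8 CPM in the cDC2 gate, in 15.7% and 8.51% of cells, and had no UMI in PTIR1 narrowed cDC2. Ifit3 stood at 59.1 and 10.3 CPM (ratio 0.174, 0.0729 to 0.36). In cDC1 Ifit1 was the exception, and stood at 43.3 and 21.5 CPM in the gate (ratio 0.496, 0.274 to 0.861) and 13.3 and 25.7 CPM in the narrowed set (ratio 1.93, 0.707 to 6.06). Per cell, the type I list made up a median of 9.23 and 16.2 UMIs per 10000 in narrowed cDC1 and 13.2 and 8.3 in narrowed cDC2. Narrowed cDC1 cells overlapped widely, from 1.41 to 75.5 in Mock and from 0.543 to 174 in PTIR1. Over all cells of the gates the medians were 26.7 and 20.8 in cDC1, which is the other direction, and 24.6 and 10.1 in cDC2. The Siglech cells, 15 of 53 Mock and 7 of 36 PTIR1 cDC1 gate cells, held this list at 5159.7 and 5842 CPM, above the 2150.3 and 3368 CPM of narrowed cDC1. That list includes Bst2, which is also in the plasmacytoid dendritic cell list, and single genes did not all follow the sum. The Siglech cells of the cDC1 gate had no Ifit3 UMI in either library. In Mock, Isg15 stood at 148 CPM in them and at 235 CPM in narrowed cDC1. The part of the Siglech cells in the difference per cell was not tested beyond leaving them out.

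**Figure D3:**
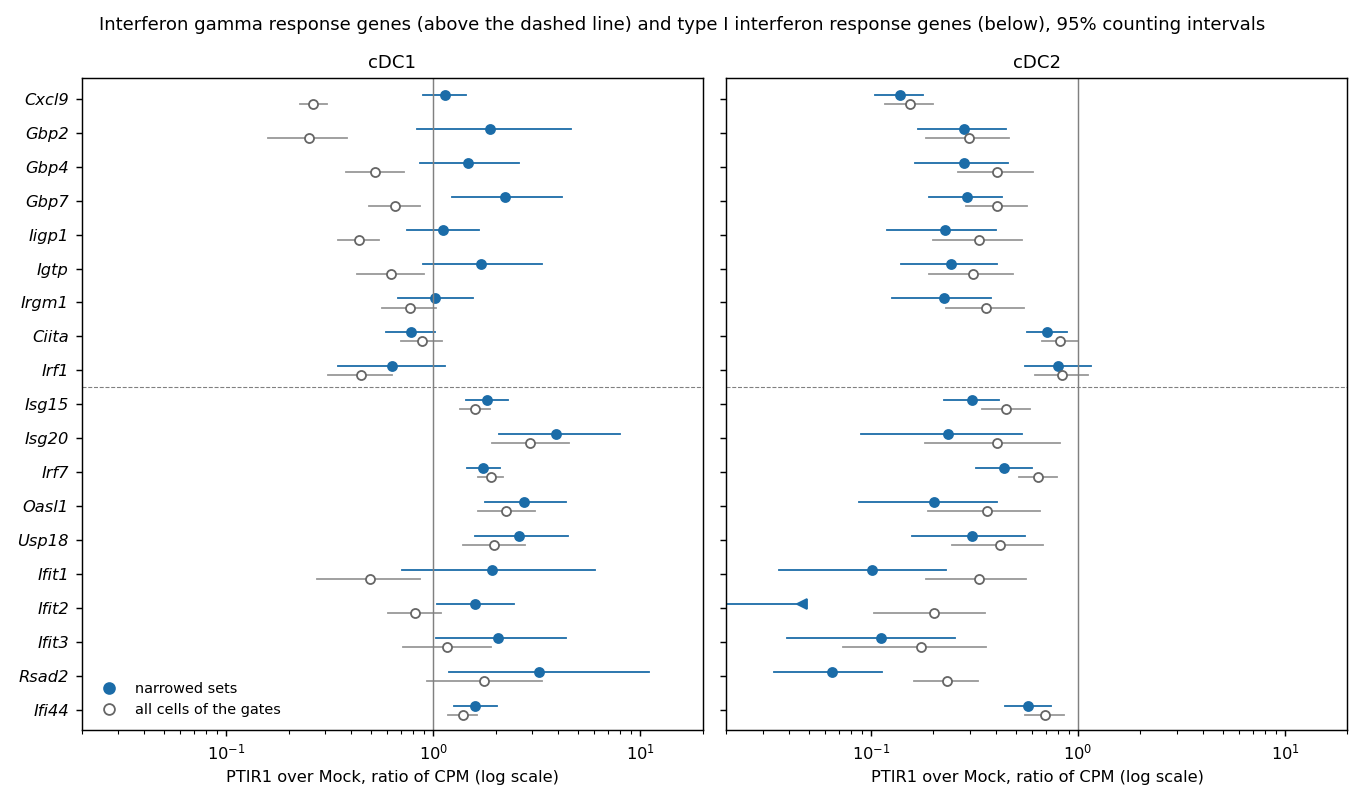
PTIR1 over Mock CPM ratio (x axis, log scale) of 8 interferon gamma response genes, Ciita and 10 type I interferon response genes in cDC1 (left) and cDC2 (right), with 95% counting intervals; blue points are narrowed sets, open circles all cells of the gates, and the triangle is the upper bound for Ifit2, which had no UMI in PTIR1 narrowed cDC2. In cDC2 every point lies below 1, and in cDC1 the blue points of the upper block lie to the right of the open circles except for Ciita.

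**Figure D4:**
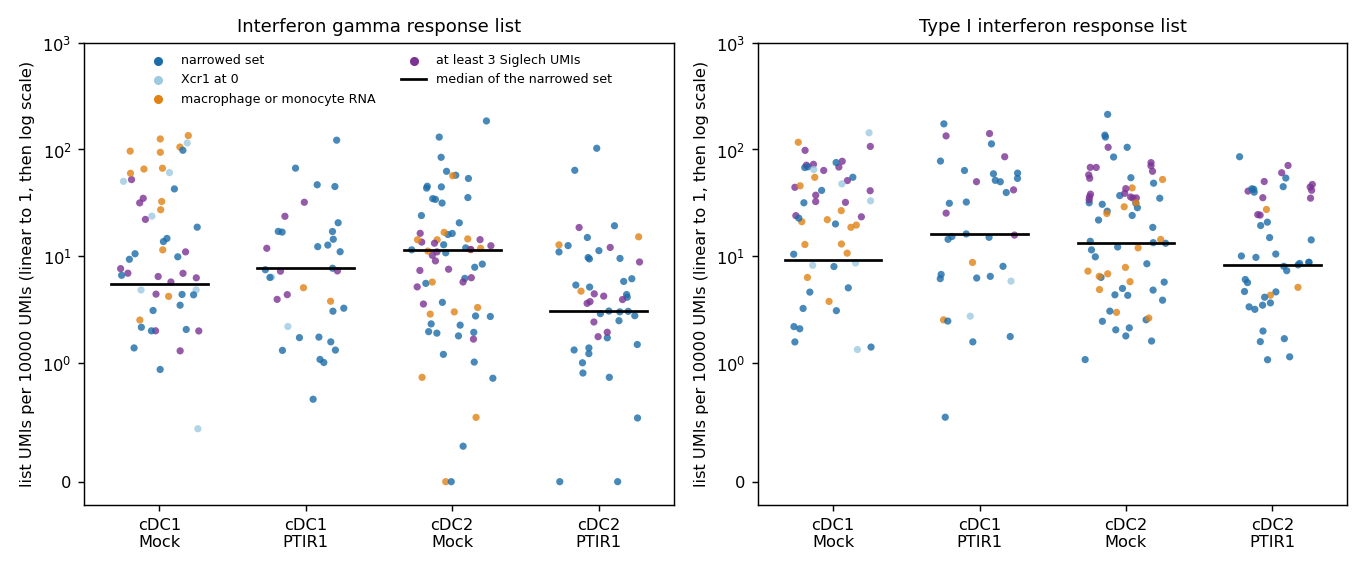
UMIs of the interferon gamma (left) and type I (right) response lists per 10000 UMIs of the cell (y axis, linear to 1, then log scale) in each gated cell, by set and library (x axis) and coloured by category; black lines are medians of the narrowed sets. The lines lie at 11.5 and 3.07 for the interferon gamma list in cDC2, and the cells of the libraries overlap in every set.

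Other leukocytes of the same libraries were set beside the 2 gates. The interferon gamma list stood at 1649 and 839 CPM in 112 and 218 mature dendritic cells, those with at least 4 UMIs of Ccr7 and Fscn1, and at 3285 and 1804 CPM in 88 and 24 macrophages. Narrowed cDC2, at 2638 and 896 CPM, shared that direction, and narrowed cDC1, at 1166 and 1430.4 CPM, did not. The type I list was likewise lower in PTIR1 mature dendritic cells (2253 and 1111 CPM), macrophages (2848 and 1883 CPM) and narrowed cDC2 (3441 and 1549.6 CPM), and higher in narrowed cDC1. Whether cDC1 differ from the other cells in this was not tested.

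Genes of MHC class I presentation were near level in both sets. In cDC1 none of 15 measured genes was called over all cells of the gate, where 13 stood lower in PTIR1 (median -0.36), and none of 13 in the narrowed set (median 0.08). In the cDC2 gate 14 of 15 stood lower in PTIR1 and 1 was called, Tap1, a chain of the peptide transporter, at 184 and 104 CPM (ratio 0.568, 0.437 to 0.732). In narrowed cDC2 3 of 14 were called lower (median -0.30). In cDC1 Tap1 stood at 191 and 273 CPM (ratio 1.43, 1.19 to 1.72), higher in PTIR1 but not past the rule. The class I heavy chain H2-K1 stood at 1141 and 1027 CPM in the cDC2 gate (ratio 0.901, 0.826 to 0.981) and B2m, the light chain, at 2613 and 2390.5 CPM (ratio 0.915, 0.865 to 0.968). The series title names the immunoproteasome, and its 5 genes gave no call in either gate (medians 0.11 in cDC1 and -0.33 in cDC2). Psmb9 stood at 794 and 897 CPM in cDC1 (ratio 1.13, 1.03 to 1.24) and 431 and 327 CPM in cDC2 (ratio 0.76, 0.653 to 0.881), and in narrowed cDC2 at 503 and 305 CPM (ratio 0.605, 0.501 to 0.728), its only call. Psmb8 had ratios of 1.08 (0.992 to 1.17) in cDC1 and 0.871 (0.786 to 0.964) in cDC2, and all 5 genes stood below 0 in cDC2. The MHC class II list had no call in cDC2 and a median of 0.11, and 2 genes called lower in the cDC1 gate with a median of -0.18.

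Immediate early genes, switched on within minutes of a stimulus or of tissue handling, stood higher in PTIR1 cDC2 and, with fewer calls, in PTIR1 cDC1. Of 18 measured, 11 were called higher and none lower in the cDC2 gate (median 0.64), where 5.27% of all measured genes were called higher. In the narrowed set 11 were called higher and 2 lower (median 0.64). Egr1 stood at 122 and 398 CPM (ratio 3.25, 2.69 to 3.94), Fosb at 306 and 603 CPM (ratio 1.97, 1.72 to 2.25) and Dusp1, a phosphatase of MAP kinases, at 572 and 1108 CPM (ratio 1.94, 1.76 to 2.14). Klf4, a factor that some cDC2 need, stood at 219 and 409.8 CPM in cDC2 (ratio 1.87, 1.59 to 2.2) and 92.2 and 242 CPM in cDC1 (ratio 2.62, 2.08 to 3.33). The cDC1 gate had 3 of 17 list genes called higher (median 0.37), beside 4.35% of all measured genes. Fosb stood there at 251 and 406 CPM and Egr1 at 103 and 118 CPM (ratio 1.15, 0.873 to 1.51). In narrowed cDC1 6 of 16 were called higher and 1, Egr1, lower (ratio 0.552, 0.373 to 0.812), with a list median of 0.46. Per cell, the list made up 78.5 and 118 UMIs per 10000 in the median narrowed cDC2 and 41.2 and 60.1 in narrowed cDC1. Median mitochondrial shares, a sign of cell damage, were near level, from 2.24% to 2.42% in the narrowed sets.

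Inflammatory cytokines and neutrophil chemokines stood higher in PTIR1 cDC2. Il1b, the pro-inflammatory interleukin 1β, stood at 1209 and 2231 CPM in the cDC2 gate (ratio 1.85, 1.72 to 1.97) and 1377 and 3014 CPM in narrowed cDC2 (ratio 2.19, 2.02 to 2.37). Tnf had a ratio of 2.52 (1.64 to 3.91), Vegfa, the angiogenic factor, of 1.92 (1.49 to 2.47) and Osm, oncostatin M, of 1.62 (1.3 to 2.03). Il1rn, the interleukin 1 receptor antagonist, was the call in the other direction, at 80.7 and 29.6 CPM (ratio 0.367, 0.224 to 0.579), with 63.4% of its Mock UMIs in 1 cell. So 4 of 6 measured cytokines were called higher and 1 lower, with and without narrowing, beside 5.27% and 3.9% of all measured genes over the gate. Cxcl1, which draws neutrophils, stood at 54 and 325 CPM (ratio 6.01, 4.63 to 7.89) in the cDC2 gate, in 11.4% and 29.8% of cells, and at 9.6 and 416 CPM in narrowed cDC2. Cxcl2, of the same use, was level in the gate at 2059 and 2284 CPM (ratio 1.11, 1.04 to 1.18) and 3.5 times higher in narrowed PTIR1 cDC2 at 804 and 2813 CPM. Ccl3, which draws CCR1 bearing cells, had a ratio of 2.75 (2.11 to 3.6), and Cxcl16, a ligand for CXCR6 bearing T cells, was lower at 0.496 (0.364 to 0.667). Ccl17 did not keep its direction, from 2.34 in the gate, with 61.4% of PTIR1 UMIs in 1 cell, to 0.757 in the narrowed set. Over the chemokine list 6 genes were called higher and 3 lower of 18 (median 0.09), beside 5.27% and 3.9% of all measured genes.

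Among genes that mark cDC2 themselves, 6 of 15 measured were called higher in PTIR1 and 2 lower, beside 5.27% and 3.9% of all measured genes. Of these 15, 8 stood above and 7 below 0 (median 0.24), and the median was -0.33 when cells were thinned to 1000 UMIs. Tmem176a and Tmem176b, ion channel proteins of antigen-presenting compartments, stood at 66.3 and 166 CPM (ratio 2.51, 1.9 to 3.31) and at 69.2 and 184 CPM (ratio 2.66, 2.04 to 3.49). Mgl2 had a ratio of 1.55 (1.45 to 1.66) in the gate and 1.36 in the narrowed set, where it was under the 1.5-fold limit. Cd209a, which chose the cells, was level at 1.09 (0.994 to 1.19). Irf4 had a ratio of 2.04 (1.19 to 3.52) in the gate and 1.26 in the narrowed set. Cd14 stood at 328 and 552 CPM (ratio 1.68, 1.47 to 1.92) and at 198 and 649 CPM in narrowed cDC2, Mrc1 at 255 and 428 CPM (ratio 1.68, 1.44 to 1.95) and Hilpda, a lipid droplet protein induced by hypoxia, at 131 and 329 CPM (ratio 2.51, 2.06 to 3.05). Cd83, a surface marker of dendritic cell activation, was higher in PTIR1 in both sets, at 46.1 and 96.6 CPM in cDC2 (ratio 2.1, 1.48 to 2.97) and 73.5 and 205 CPM in cDC1 (ratio 2.79, 2.15 to 3.64). Ear2, an eosinophil-associated ribonuclease, stood at 15.9 and 144 CPM (ratio 9.11, 5.73 to 15.1), near other Ear genes of like sequence, so the split of its reads is uncertain. Monocyte genes were lower: 5 of 8 measured were called so in the gate, where 3.9% of all measured genes were (median -0.69). Ly6c2, the Ly6C antigen of monocytes, stood at 594 and 348 CPM (ratio 0.585, 0.508 to 0.672), and at 283 and 39.6 CPM in narrowed cDC2 (0.14), which was not chosen on it. The gate value came mostly from Siglech cells. In Mock the 16 Siglech cells held 542 Ly6c2 UMIs, cells with macrophage or monocyte RNA 77 and narrowed cDC2 206. In PTIR1 the last 2 categories held 8 and 22. In narrowed cDC2 3 of 39 Mock cells held 171 of the 206 Ly6c2 UMIs and 25 had none, and the ratio was 0.223 without the highest Mock cell and 0.0604 without the highest PTIR1 cell. Lyz2, which did choose the narrowed cells, stood at 5080.1 and 2598 CPM in the gate.

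Several cDC2 calls rested on a single PTIR1 cell and are given only as such. The highest PTIR1 cell held 93.1% of the S100a9 UMIs and the highest for S100a8 89.7%, both genes of neutrophils, at gate ratios of 17.9 and 8.37. Of Gzmb and Gzma, granzymes of killer lymphocytes, 78% and 65.4% of the PTIR1 UMIs were in 1 cell each. Of Pf4, a platelet chemokine also made by macrophages, 69.8% were, and of Dcn, the fibroblast proteoglycan with no Mock UMI, 76.8%. A caller of doublets, used as an alternative, left out 4 of the 117 cDC2 and 3 of the 89 cDC1 gate cells.

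Over all cells of the cDC1 gate most measured macrophage, lectin and chemokine genes were lower in PTIR1. Of the macrophage list 11 of 13 measured were called lower (median -1.18), of lectins 13 of 16 and of chemokines 12 of 18 (median -1.66), beside 8.18% of all measured genes. The cDC1 gate, unlike the cDC2 gate, set no limit on Adgre1, and with that limit asked of both the chemokine median in cDC1 was 0.12. Ccl2 and Ccl7, which draw monocytes, stood at 1417 and 339.9 CPM for Ccl2 and 558 and 126 CPM for Ccl7, with 55.8% and 49.9% of their Mock UMIs in 1 cell. Ccl6, a chemokine of myeloid cells, stood at 1573 and 475 CPM in the gate and 273 and 122 CPM in narrowed cDC1, where the ratio was 0.445 and, without the highest cell of each library, 1.59. Pf4 stood at 739 and 76.3 CPM, with 64.4% of its Mock UMIs in 1 cell, and Cxcl10, a partner of Cxcl9, at 184 and 15.5 CPM in the gate and 26.7 and 20.6 CPM in narrowed cDC1. The gate held 13 Mock and 2 PTIR1 cells with macrophage or monocyte RNA, and in narrowed cDC1 3 of 6 measured macrophage genes were called lower and 1, Fcgr1, a high-affinity Fc receptor, higher. Among the lower ones was Pf4, whose narrowed ratio of 0.132 became 1.11 without the highest cell of each library.

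Klf4, Cd83 and Ifngr1 were called higher in PTIR1 with and without narrowing. Klf4, given above, had a narrowed ratio of 2.19, and Cd83 of 2.01. Ifngr1, a chain of the interferon gamma receptor, stood at 87.4 and 192 CPM in the gate (ratio 2.2, 1.71 to 2.83) and 62.2 and 226 CPM in narrowed cDC1 (3.64). The cDC1 marker list was near level in the narrowed set, where 11 of 14 measured genes stood below 0 (median -0.15), none was called higher and 2 were called lower, Cadm1, an adhesion molecule, at 0.558 and Rab7b at 0.603. Genes within 1.5-fold there were Naaa at 1.08, Wdfy4 at 0.94, Batf3 at 1.1, Flt3 at 0.987 and Irf8 at 0.759. Over the gate Wdfy4 was called higher in PTIR1, at 1.54 (1.31 to 1.83), where the narrowed share of the gate is also larger. The monocyte list went from a median of -0.54 with 4 of 8 measured genes called lower in the gate to 1.08 with 4 of 5 called higher in narrowed cDC1. Ly6c2 was 0.564 in the gate and 1.76 in narrowed cDC1, and there Plac8 (2.11) and Ms4a4c (3.66) were called higher as well. Most Ly6c2 UMIs of the gate were in Siglech cells, 525 in Mock and 221 in PTIR1, against 93 and 4 in cells with macrophage or monocyte RNA. Narrowed cDC1 held Ly6c2 at 55.5 and 97.6 CPM, and 1 of 25 PTIR1 cells held 27 of its 57 UMIs and 1 of 18 Mock cells 16 of 25. Without the highest PTIR1 cell its ratio was 0.941, without the highest Mock cell 4.55 and without both 2.43, so its direction there rested on single cells. Without the highest cell of each library Plac8 stood at 2.54 and Ms4a4c at 5.05.

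Cell cycle genes stood higher in PTIR1 cDC1, from few cells. Of 18 measured, 10 were called higher and 1, Mcm3, lower in the gate (median 0.77), and 9 of 12 higher in narrowed cDC1 (median 1.04). Of all measured genes 4.35% were called higher in the gate and 7.23% in narrowed cDC1. Mki67, the proliferation antigen, stood at 42.5 and 284 CPM in the gate (ratio 6.69, 4.94 to 9.21), in 28.3% and 30.6% of cells, and 1 PTIR1 cell held 56.3% of its UMIs. Without the highest cell of each library the narrowed ratio was 6.49, but 1 other PTIR1 cell held 52 UMIs and no further narrowed PTIR1 cell more than 11. Top2a, the topoisomerase of dividing cells, stood at 44.9 and 101 CPM (ratio 2.26, 1.59 to 3.23) and Birc5, survivin, at 22 and 99 CPM (ratio 4.49, 2.88 to 7.21). The share of cells with at least 3 UMIs of Mki67 and Top2a, 3 of 18 and 6 of 25 in narrowed cDC1, was not different beyond its counting intervals of 3.58 to 41.4% and 9.35 to 45.1%. The median cell held the list at 7.66 and 7.08 UMIs per 10000, and the highest at 70.7 and 125, so the higher sums came from the top of the range and not from the median cell. In cDC2 only 4 genes of the list were measured, of which 2, Cenpa (ratio 1.63, 1.14 to 2.34) and Hmgb2 (ratio 1.69, 1.37 to 2.07), were also called higher in PTIR1 over the gate, and in narrowed cDC2 2 were called higher and 1 lower.

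**Figure D5:**
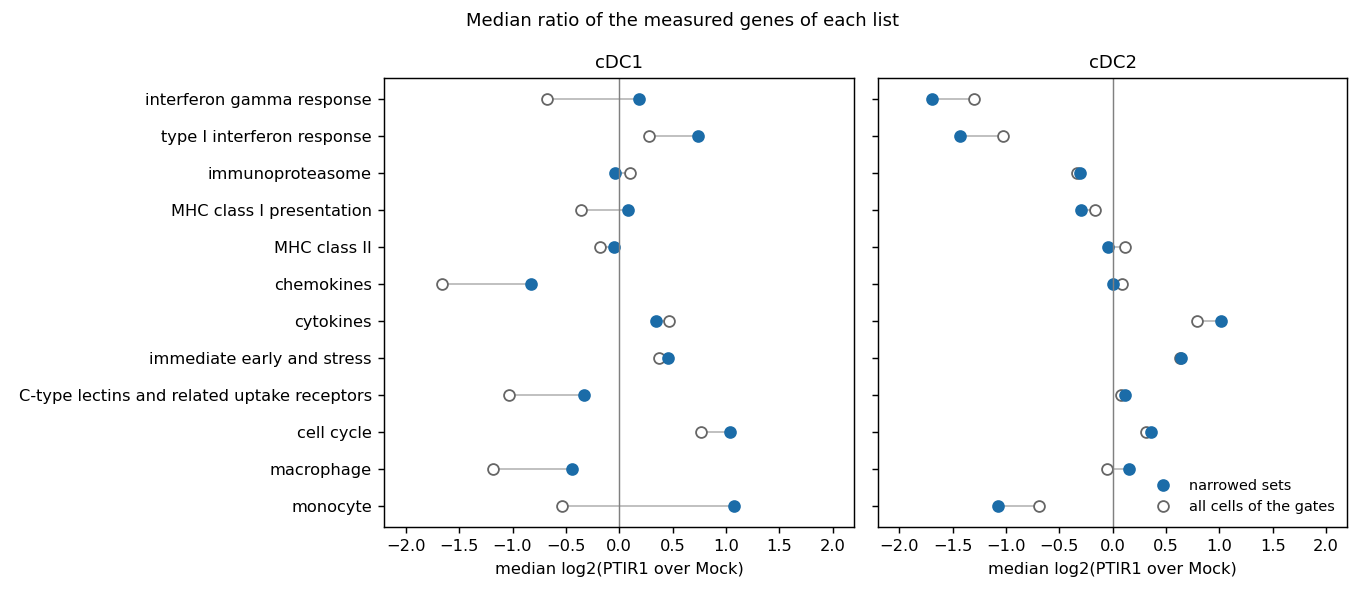
Median log2 PTIR1 over Mock ratio (x axis) of the measured genes of 12 lists in cDC1 (left) and cDC2 (right); open circles are all cells of the gates and blue points the narrowed sets, joined by a line. In cDC1 the interferon gamma list goes from -0.67 to 0.18 and the monocyte list from -0.54 to 1.08, while in cDC2 the interferon lists lie at -1.02 or lower either way.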

How the data were processed

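The labels and matrices give 1 droplet-based single-cell RNA library for the Mock and 1 for the PTIR1 group, with raw UMI counts per gene and barcode as deposited by the authors. Per the submitters' processing notes the tools were Cell Ranger 5.0.0 and Seurat 3.2.3, and the genome was mm10. No cell type annotation was used here, so cells were gated on their UMIs. The members, gene lists and gates were chosen with earlier results of these data known, and named genes were those ranked highest by the interval end nearest to 1 (20 in each direction between sets, 12 between libraries), up to 4 per list in each direction and list members the text needs; some genes that this rule names are not reported here.

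UMIs were summed per set and library (scipy 1.17.1 and numpy 2.4.6, run in Python 3.11.15) and scaled to CPM. Intervals are exact binomial or Poisson at 95% and cover counting error only. Scripts were tested on simulated data. Medians were 16300 to 20573 UMIs per gated cell. No doublets were removed in the main values; Scrublet in scanpy 1.11.5 served as an alternative and left out 696 Mock and 458 PTIR1 barcodes. Alternatives were minimum UMIs, mitochondrial share, gate limits, thinning, scaling, gene minimum and equal weight for each cell. All 506 list and named gene identifiers matched GENCODE vM21 with the same symbol.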

Additional observations from a re-analysis of the deposited data

Results flagged for a closer look

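Between libraries, 14 genes were called in one direction in the cDC1 gate and in the other in the cDC2 gate. Values are PTIR1 over Mock ratios, first in cDC1 and then in cDC2, and the difference between the sets was not tested, with 1 library in each group. Interferon genes and a histone gene were higher in PTIR1 cDC1 and lower in PTIR1 cDC2: Irf7 (1.89 and 0.643), Isg20 (2.92 and 0.407), Oasl1 (2.24 and 0.363), Usp18 (1.96 and 0.417) and Hist1h1b (3.6 and 0.322). These 5 had opposite directions in the narrowed sets too, where Hist1h1b stood at 3.68 and 0.338.

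The other 9 were lower in PTIR1 cDC1 and higher in PTIR1 cDC2 over all cells of the gates. Lectins and receptors were Mgl2 (0.331 and 1.55), Mrc1 (0.475 and 1.68) and Cd209d (0.198 and 1.61). The cDC1 gate held more cells with macrophage or monocyte RNA in Mock (13 of 53) than in PTIR1 (2 of 36). Mgl2 stood at 45.8 CPM in those 13 Mock cells and at 91.1 CPM in Mock narrowed cDC1, where 1 cell held 25 of 41 UMIs. The part of such cells in the lectin ratios was not tested. Chemokines were Ccl3 (0.333 and 2.75) and Pf4 (0.103 and 2.58), and the hypoxia gene Hilpda stood at 0.62 and 2.51. Gzma (0.405 and 4.5), Gzmb (0.232 and 4.07) and S100a8 (0.376 and 8.37) had 65.4%, 78.0% and 89.7% of their PTIR1 cDC2 UMIs in 1 cell. In narrowed cDC2 all 9 ratios stood above 1, from 1.36 for Mgl2 to 12.4 for S100a8. In narrowed cDC1 only Pf4, at 0.132, was called. Cd209d had no UMI there, Ccl3 (0.718), Gzma (0.675), Hilpda (0.415), Mgl2 (0.094) and Mrc1 (0.089) stood below 1, and Gzmb (3.86) and S100a8 (3.08) above 1, with 6 and 10 UMIs over both libraries. The direction of Ccl3, Hilpda and Gzmb in cDC1 and of Pf4 in cDC2 also turned under alternatives given below.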

How the results depend on the processing

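With 1 library per group no library could be left out, and no value carries the spread between animals; "moved" below means by more than the counting interval or, for counts, by over 1.5 times. No paired analysis was possible because each group has 1 library. Counts and numbers stayed within those limits in 139 values and moved in 21, list medians in 609 and 81, and named genes in 2148 and 338; 14 list medians and 23 ratios of genes past the size rule changed direction. Where values moved the cause was not tested, except that thinned cells and gene minimums change how many genes are measured. The narrowed sets and the ratios without a highest cell were chosen after seeing the data.

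Thinned to 1000 UMIs per cell, the counts were 12 higher and 16 lower in PTIR1 cDC1, 13 higher and 9 lower in PTIR1 cDC2, 0 higher in cDC1 and 1 higher in cDC2. With at least 200 UMIs per gene they were 54, 101, 74, 54, 30 and 24 in the same order, and with at least 20 the higher counts were 319 in cDC1 and 400 in cDC2. Without cells holding 3 UMIs of another lineage, 253 genes were lower in PTIR1 cDC1 and 69 were higher in cDC2 than in cDC1, which became 71 with the Adgre1 limit asked of both sets. The narrowed sets gave 102 lower in PTIR1 cDC1, 125 higher in cDC2 than in cDC1, a cDC1 share of 31.6% of Mock members and a cDC1 share of barcodes 1.71 times higher in PTIR1.

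Changes of direction are given as log2 PTIR1 over Mock. In the narrowed sets they were 0.19 for Cxcl9, 0.16 for Iigp1, 0.81 for Ly6c2 and -0.0886 for Wdfy4 in cDC1, -0.40 for Ccl17 in cDC2, and in cDC1 0.18 for the interferon gamma list, 1.08 for the monocyte list and -0.145 for the cDC1 list. Narrowed cDC1 without the highest Mock cell gave 1.15 for Cxcl9 and 2.19 for Ly6c2, and without the highest cell of each library 0.44 and 1.28. With the Adgre1 limit asked of both sets, cDC1 values were 0.13 for Ccl3, 0.31 for Ccl6, 1.34 for Hilpda and 0.12 for the chemokine list. With it asked of neither, cDC2 values were 0.17 for Hist1h1b and -0.14 for the MHC class II list. Without cells of another lineage, Ccl3 was at 0.22 and Hilpda at 1.36 in cDC1, and without the deepest 5% of cells Ccl3 was at 0.32 and Hilpda at 0.93 in cDC1 and Pf4 at -0.32 in cDC2. With each cell weighing the same, Hilpda was at 0.0287, and without the highest cell of each set Gzmb was at 0.77, both in cDC1. In cDC2, Ccl17 was at -0.83 with at most 5% mitochondrial UMIs and at -0.10 with at least 5 Cd209a UMIs, Pf4 at -0.63 with at least 2 Cd209a UMIs, the cDC2 list at -0.33 when thinned and the cell cycle list at -0.37 with at least 20 UMIs per gene. As log2 cDC1 over cDC2, the macrophage list was at -0.71 with the Adgre1 limit asked of both, -0.49 without cells of another lineage and -0.90 in the narrowed sets. The chemokine list between the sets was at -1.31 with the Adgre1 limit asked of both, -1.10 without cells of another lineage, -0.336 without the deepest 5% of cells and -1.28 in the narrowed sets.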

Other observations

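Several genes with large differences between the sets that belong to none of the lists were receptors of cDC2. Asgr2, a chain of the asialoglycoprotein receptor, stood at 80.7 and 85.1 CPM in the cDC2 gate and 0.816 and 1.19 CPM in the cDC1 gate. Gfra2, the co-receptor for neurturin, stood at 20.2 and 52.8 CPM in cDC2 and 0 and 2.39 CPM in cDC1, and between libraries it was higher in PTIR1 cDC2 (ratio 2.62, 1.58 to 4.4, narrowed 2.7), in 18.6% and 42.6% of cells. Ffar2, a receptor for short-chain fatty acids, stood at 29.5 and 58 CPM in cDC2 and 1.63 and 0 CPM in cDC1. Tnip3, an inhibitor of NF-κB signalling, stood at 146 and 274 CPM in cDC2 and 22 and 38.2 CPM in cDC1, and Cish, a brake on cytokine signals, at 129 and 156 CPM in cDC2 and 26.1 and 38.2 CPM in cDC1. In the hypoxia and glycolysis list 17 of 19 measured genes stood higher in cDC2 (median -0.45) and none was called over the gates. Of 8 measured pattern recognition genes in the cDC2 gate 3 were called higher in PTIR1 and 1, Tlr13, lower (ratio 0.48, 0.222 to 0.951), with a median log2 ratio of -0.07. Of all measured genes there 5.27% were called higher and 3.9% lower. Cd14, given above, and 2 others were higher, with Nlrp3, the inflammasome sensor, at 67 and 125 CPM (ratio 1.87, 1.39 to 2.51) and Tlr2, which reads lipoproteins, at 43.2 and 69.6 CPM (ratio 1.61, 1.09 to 2.36). Vcan, a proteoglycan of monocytes, stood at 178 and 25.8 CPM in cDC2 (ratio 0.145, 0.0869 to 0.229).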
